A study of Mus musculus with 4 samples.

Results

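At dpi4, 4 days after muscle was injured with cardiotoxin, 383 of the 6504 macrophage-like barcodes of the dpi4 libraries carried transcripts of skeletal muscle fibres. They are called carriers here. A carrier was a cell barcode of a dpi4 library with at least 500 detected genes, under 10% of its UMIs (unique molecular identifiers, which count distinct RNA molecules) from mitochondrial genes, at least 5 UMIs of C1qa, C1qb and C1qc together per 10000 UMIs, and at least 3 UMIs of Acta1, Ckm, Mylpf and Tnnc2 together per 10000 UMIs. The 6121 barcodes that met the first 3 limits and stayed under the fourth were the comparison set, called the other C1q barcodes. The control library held 300 carriers and the KO library held 83, out of 20500 barcodes in the 4 libraries of the study. The carriers were chosen by their UMIs of the 3 C1q genes and the 4 muscle genes, so the levels of these 7 genes in carriers are a description of the choice and not a result.

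Both libraries came from immune cells enriched with magnetic beads for CD45, the surface protein shared by leukocytes, after enzymatic digestion of the injured tibialis anterior of male C57BL/6 mice aged 8 to 12 weeks. The injury was an injection of cardiotoxin, a venom component that kills muscle fibres and spares the stem cells between them. Control mice carried Bach1 fl/fl alleles, with loxP sites around exon 4, which encodes the DNA-binding domain of this heme-sensing repressor. KO mice carried the same alleles and a Cre recombinase under the Lyz2 promoter, which is active in monocytes, macrophages and neutrophils, so cells outside the myeloid lineage kept an intact Bach1 gene. Each genotype was represented by 1 library at dpi2 and 1 library at dpi4, so no spread between animals was measured, and every interval given here covers counting error alone.

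Muscle fibres are large cells with many nuclei, packed with a small set of very abundant contractile proteins whose messenger RNAs dominate their transcriptome. After injury, the dead fibres are cleared by macrophages, which engulf debris through receptors for exposed lipids, carry it to lysosomes and break down its proteins, lipids and nucleic acids. In the same days, muscle stem cells divide, commit through the myogenic transcription factors and fuse into new fibres that begin with embryonic forms of the contractile proteins. C1qa, C1qb and C1qc encode the chains of the complement component C1q, which tissue macrophages make in large amounts. A barcode in droplet sequencing can hold RNA of its own cell, of a second cell in the same droplet, of material the cell has taken up and of RNA that floated free in the suspension.

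The dpi4 libraries held 80228489 UMIs in 5207 barcodes (control) and 62566722 UMIs in 4514 barcodes (KO). After the limits on genes and mitochondrial UMIs, 4323 and 3533 barcodes were left, with medians of 15311 and 13894 UMIs, and 3658 (84.6%) and 2846 (80.6%) of these reached the C1q limit. The dpi4 libraries shared 2 barcode sequences in all and 0 among carriers. The label of macrophage was checked against other genes: at least 4 of 7 macrophage markers outside the rule (Adgre1, Csf1r, Mertk, Apoe, Cd68, Fcgr1 and Ms4a7) were detected in 92.0% of control and 91.6% of KO carriers, against 95.2% and 95.5% of the other C1q barcodes. The background share was 41.5% and 31.5% in dendritic-like barcodes, which had dendritic cell markers and were under the C1q limit (medians of 10807 and 10365 UMIs) and 6.90% and 2.44% in neutrophil-like, T-like, NK-like and B-like barcodes together (3403 and 4614 UMIs). The summed level of the 7 markers was 36739 CPM (UMIs of the genes per 1000000 UMIs of the set) in control and 30536 in KO carriers, against 1430 and 751 in dendritic-like barcodes. Of the 28 control and 8 KO carriers under 20 C1q UMIs per 10000, 42.9% (24.5 to 62.8) and 50% (15.7 to 84.3) held 4 markers, at medians of 3061.5 and 3490.5 UMIs, so the label was less well supported for these. The summed level of these 7 genes was 1.25-fold (95% interval 1.24 to 1.25) higher in control carriers and 1.34-fold (1.32 to 1.36) higher in KO carriers than in the other C1q barcodes of the same library. Apoe, a lipid carrier that macrophages secrete, accounted for most of that sum, at 32469 CPM in control carriers against 25442 and at 26572 in KO carriers against 19225. Ptprc, which encodes CD45, was detected in 96.7% of control and 91.6% of KO carriers. The targeted gene could not be checked, because a count per gene does not show the loss of an exon: Bach1 stood at 228 CPM in control carriers and 236 in KO carriers. Lyz2, the gene at which the Cre allele sits, was at 16827 CPM in control carriers and 21.5 in KO carriers, and Hmox1, the heme oxygenase gene that BACH1 represses, was at 215 and 6161.

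Carriers made up 8.20% (exact 95% interval 7.33 to 9.14) of the C1q barcodes of the control library and 2.92% (2.33 to 3.60) of those of the KO library. The difference, KO minus control, was -5.28 percentage points (-6.39 to -4.18). It compares 2 libraries and not 2 genotypes. At dpi2, 3 of 2252 control and 3 of 1164 KO barcodes at the C1q limit met the same rule, which is 0.133% and 0.258%. Most C1q barcodes held no UMI of the 4 genes: 59.3% of the other C1q barcodes of the control library and 72.2% of those of the KO library. The level in carriers had a median of 5.36 muscle UMIs per 10000 in control and 4.60 in KO, and a highest value of 168 and 25.9. In control, 164 carriers reached 5 per 10000, 51 reached 10, 6 reached 30 and 2 reached 100, while in KO 35 reached 5, 11 reached 10 and 0 reached 30. The 10 carriers with the most muscle UMIs held 18.7% of all muscle UMIs of control carriers and 34.0% of those of KO carriers. Just inside the limit, the lowest control carrier had 3.01 per 10000 (11 of 36550 UMIs) and the lowest KO carrier 3.02 (1 of 3314 UMIs). Just outside it, the highest values were 2.99 per 10000 in both libraries, each from 1 muscle UMI, in barcodes of 3349 (control) and 3343 (KO) UMIs.

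**Figure D1:**
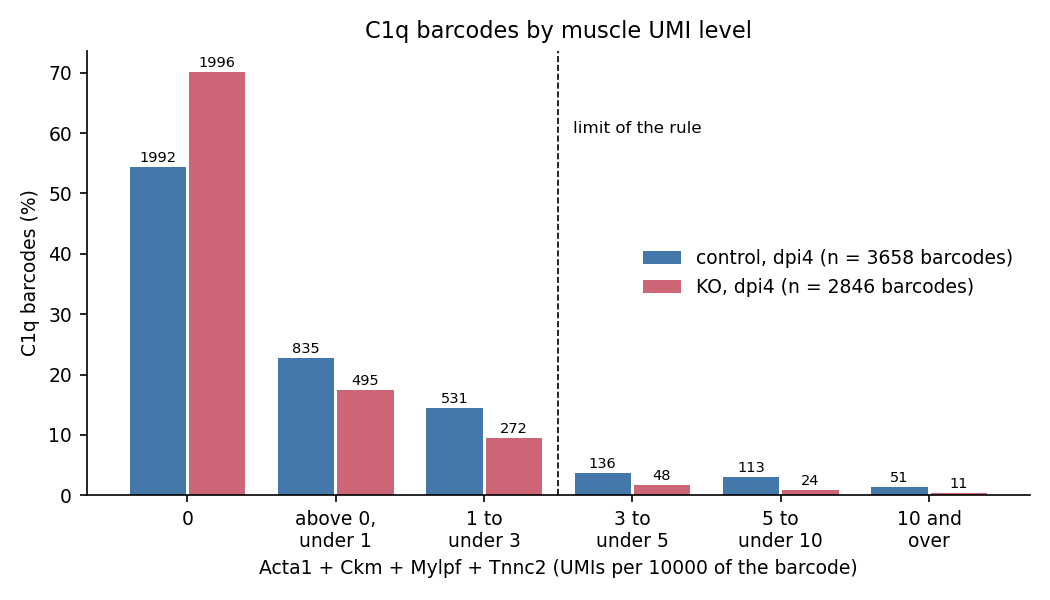
Share of the C1q barcodes of each dpi4 library, in percent, by muscle level, that is, UMIs of Acta1, Ckm, Mylpf and Tnnc2 per 10000 UMIs, with the number of barcodes written on each bar. The 3 classes from 3 per 10000 upward are the carriers, 300 in the control library and 83 in the KO library, and most barcodes of both libraries sit at no muscle UMI.

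The 4 rule genes are markers of skeletal muscle. Acta1 encodes skeletal muscle actin (chr8:123891769-123894751, minus strand, GRCm38), Mylpf the regulatory light chain of fast myosin (chr7:127208890-127214298, plus strand), Tnnc2 the calcium-binding troponin of fast fibres (chr2:164777161-164779967, minus strand) and Ckm muscle creatine kinase (chr7:19404776-19422841, plus strand). In control carriers, Mylpf stood at 290 CPM and was detected in 92.3% of barcodes, Acta1 at 281 in 91.0%, Tnnc2 at 125 in 68.7% and Ckm at 48.0 in 42.7%. In KO carriers, Mylpf stood at 219 CPM in 81.9% of barcodes, Acta1 at 187 in 78.3%, Tnnc2 at 95.1 in 54.2% and Ckm at 27.6 in 28.9%. All 4 genes were detected together in 95 control and 10 KO carriers, and a single gene alone in 30 and 18. Carriers with a single gene were shallow, with a median of 2186.5 UMIs (control) and 2661 (KO), against 20314 and 17145.5 for carriers with all 4. Of 50-base words at the 3′ ends of Acta1 transcripts, 4.42% also occur in other genes, among them Actb and Actg1, and 0 of those of Ckm, Mylpf and Tnnc2 do. The cytoskeletal actins did not move with Acta1: Actb was 0.846-fold and Actg1 0.813-fold in control carriers against the other C1q barcodes.

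Because the limit is a share of UMIs, depth entered the choice. A barcode of up to 3333 UMIs reaches it with 1 muscle UMI, and 25 control and 10 KO carriers held 1 muscle UMI. Carriers of up to that depth numbered 32 (10.7%) in control and 16 (19.3%) in KO, against 5.33% and 4.92% of the other C1q barcodes. The median depth was 15014.5 UMIs in control carriers against 16243 in the other C1q barcodes, a ratio of 0.924, and 10567 against 15303 in KO, a ratio of 0.691. The median share of mitochondrial UMIs was 4.74% in control carriers against 4.63% and 5.54% in KO carriers against 4.77%. The share of carriers was 15.2% among control C1q barcodes under 3334 UMIs, between 6.56% and 9.30% in the 5 deeper classes. In KO it was 10.5% in the shallowest class, 4.47% from 3334 to 10000 UMIs and 1.14% at 30000 UMIs or more. At least 3 muscle UMIs were present in 267 control carriers (89.0%) and 61 KO carriers (73.5%). Because depth moved with the choice, barcodes of 10000 to 20000 UMIs were also compared by themselves (152 carriers and 1606 others in control, 32 and 1233 in KO), and these values are given below as values within the depth band.

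Muscle genes that the rule did not use were higher in carriers as a group. Summed over 78 measured genes, they stood at 1536 CPM in control carriers against 505 in the other C1q barcodes, a ratio of 3.04 (2.97 to 3.12), and at 957 against 381 in KO, a ratio of 2.51 (2.35 to 2.68). Macrophages make some of these genes themselves. With 1 library per group there is no test, and a gene was counted as higher or lower only by a rule of size: a ratio of at least 2-fold, a 95% counting interval that leaves out 1, and at least 50 UMIs in the carriers and the others together. By that rule, 45 of 63 muscle genes with enough UMIs were higher and 0 lower in control carriers, and 22 of 35 were higher and 0 lower in KO carriers. Over all genes, 1.21% of 12021 were higher and 3.11% lower in control carriers, and 1.27% of 11342 were higher and 2.37% lower in KO carriers, which is 4.33% and 3.64% in either direction, with median log2 ratios of -0.06 and -0.09. These ratios come from the same barcodes that the 4 rule genes chose, so they describe the carriers and test nothing.

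Fast fibre genes had a median log2 ratio of 3.57 in control, with 9 of 10 genes higher, and all 5 genes with enough UMIs were higher in KO with a median of 3.16. Myl1, the essential light chain of fast myosin (chr1:66924295-66945404, minus strand), stood at 142 CPM in control carriers against 9.90 in the others, a ratio of 14.4 (12.9 to 16.0), and at 80.8 against 5.40 in KO, a ratio of 15.0 (11.5 to 19.3). Tnnt3, the fast troponin T that ties the troponin complex to tropomyosin, was at 71.0 against 5.26 in control (13.5-fold, 11.6 to 15.7) and at 41.9 against 3.44 in KO (12.2-fold, 8.44 to 17.2). Tnni2, the inhibitory subunit of fast troponin, was 3.37-fold and 2.37-fold higher, from 18.6 and 16.4 CPM in the other C1q barcodes. Actn3, the fast Z-disc actinin, was 6.39-fold and 8.92-fold higher, and Atp2a1, the calcium pump of fast fibres, 6.30-fold and 8.80-fold. Myh4, the myosin heavy chain of the fastest fibres, was 17.0-fold higher in control carriers (87 UMIs against 63) and had 4 UMIs in KO carriers against 18.

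Slow fibre and heart genes were present as well, with 5 of 6 higher in control and 3 of 4 in KO, and median log2 ratios of 3.10 and 3.68. Tnni1, the slow troponin I, was at 36.8 CPM against 3.09 in control (11.9-fold) and at 25.6 against 1.45 in KO (17.7-fold). Tnnc1 was 9.64-fold and 14.4-fold higher, and Tnnt1 5.88-fold and 11.4-fold. The exception was Atp2a2, a calcium pump that most cells use, at 0.920-fold (0.836 to 1.01) in control and 0.625-fold in KO. Of the adult slow myosin genes, Myh7 had 0 UMIs in carriers of both libraries and Myl2 also had 0. Among the genes of the sarcomere and its Z-discs, 11 of 14 were higher in control and 4 of 6 in KO: Ttn, the giant spring of the sarcomere, at 4.97-fold and 8.26-fold, Neb, the nebulin of the thin filament, at 8.57-fold and 14.6-fold, Des, the muscle intermediate filament, at 4.18-fold and 7.38-fold, and Tpm2, muscle tropomyosin, at 5.16-fold and 8.03-fold. Tpm1, which macrophages also make, was at 1.56-fold and 1.44-fold and did not pass the size rule.

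Excitation-contraction genes differed between the libraries in how many could be counted. In control, 5 of 7 were higher, with Srl, the sarcalumenin of the calcium store, at 12.7-fold. In KO, 1 of 3 was higher (Srl, 7.17-fold), and Asph at 0.725-fold and Ryr1 at 0.678-fold gave the list a median log2 ratio of -0.46. The genes of muscle energy supply split in both libraries, with 5 of 10 higher in control and 2 of 8 in KO. Pgam2, the muscle phosphoglycerate mutase, was 15.5-fold and 8.17-fold higher and Eno3, the muscle enolase, 6.57-fold and 2.35-fold, while Cox7a1, a subunit of the respiratory chain, was at 0.927-fold and 0.547-fold. In control carriers, Mb (myoglobin) was 17.7-fold and Cox8b 17.4-fold higher. Neither reached 50 UMIs in KO. Of the 35 muscle genes with enough UMIs in both libraries, 20 passed the size rule upward in both.

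**Figure D2:**
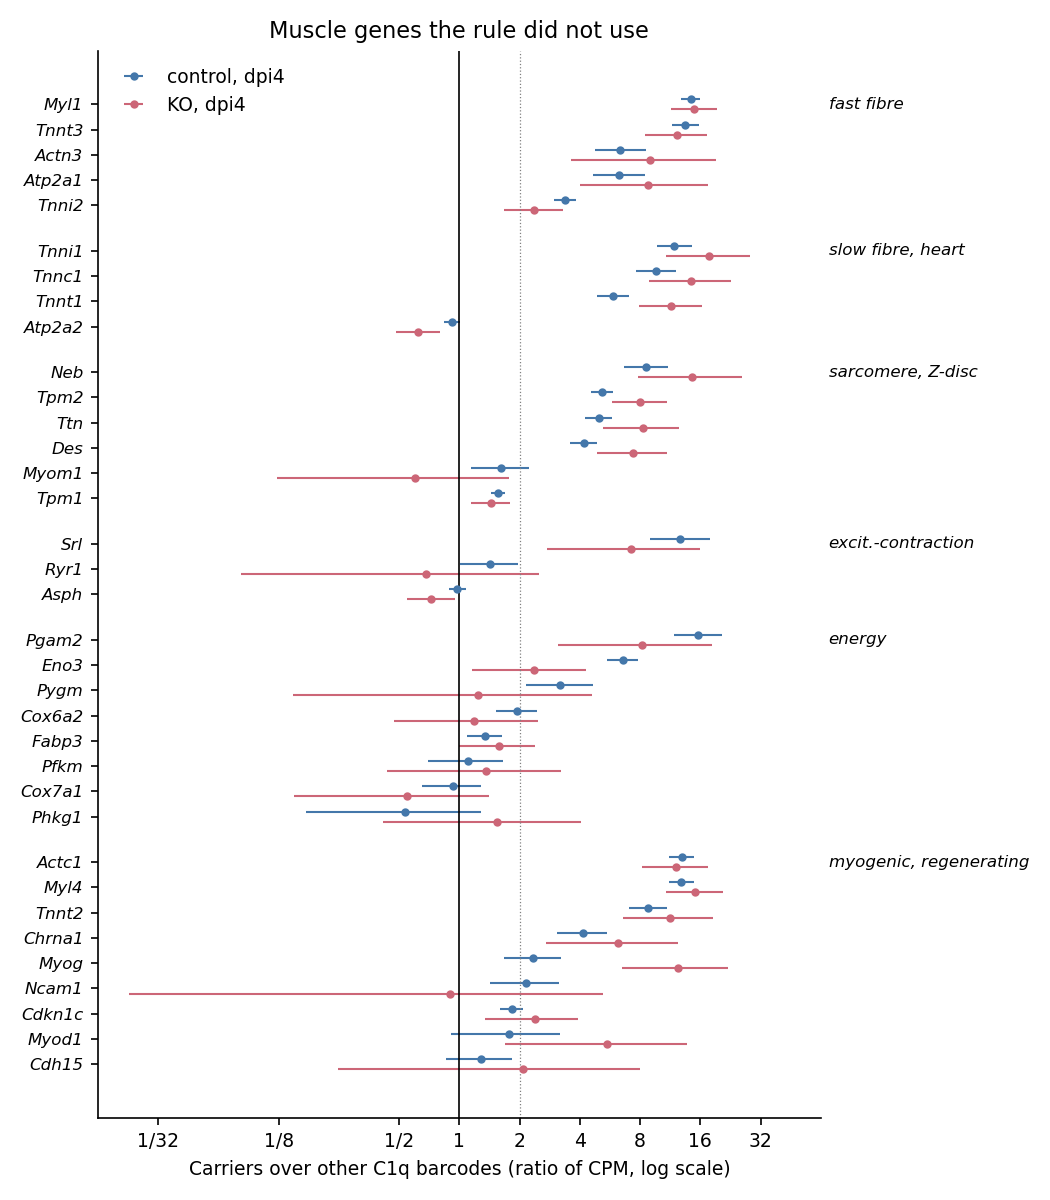
Ratio of CPM in carriers over the other C1q barcodes, on a log axis, for the 35 muscle genes outside the rule with at least 50 UMIs in both dpi4 libraries, with 95% counting intervals and a dotted line at a 2-fold ratio. Of these, 20 genes passed the size rule in both libraries, and Myl1 sits at 14.4 in control and 15.0 in KO.

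Transcripts of newly forming fibres were among those higher in carriers. Of 16 myogenic and regenerating fibre genes with enough UMIs in control, 10 were higher, and 7 of 9 were higher in KO. Embryonic and perinatal contractile genes had ratios as large as those of the adult fast genes: Actc1, the actin of heart and of new fibres (chr2:114047282-114053548, minus strand), was at 78.7 CPM against 6.09 in control (12.9-fold, 11.2 to 14.9) and at 36.8 against 3.04 in KO (12.1-fold, 8.18 to 17.5). Myl4, the embryonic light chain, was 12.9-fold and 15.1-fold higher and Tnnt2, the embryonic troponin T, 8.75-fold and 11.3-fold. Myh3, embryonic myosin, was 15.7-fold higher in control (94 UMIs in carriers), and Myh8, perinatal myosin, 14.9-fold. In KO, Myh3 had 12 UMIs in carriers against 32 in the others, under the minimum. Mymk, the membrane protein that starts myoblast fusion (listed as Tmem8c), was 8.90-fold higher in control carriers, and Mymx, its partner in fusion (listed as Gm7325), 3.50-fold. Chrna1, a subunit of the acetylcholine receptor of the nerve contact, was 4.13-fold and 6.19-fold higher.

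The myogenic transcription factors were measured on few UMIs. Pax7, the factor of muscle stem cells, was at 1.81-fold and Myf5, an early commitment factor, at 1.57-fold in control carriers, and neither passed the size rule. Myog, which drives the final step of differentiation (chr1:134289989-134292548, plus strand), was 2.34-fold higher (1.67 to 3.22) in control carriers and 12.3-fold in KO carriers, where 13 of its 15 UMIs came from 1 carrier. Any UMI of Pax7, Myf5, Myod1 or Myog was present in 52 control carriers (17.3%, 13.2 to 22.1) against 5.75% of the other C1q barcodes, and in 7 KO carriers (8.43%, 3.46 to 16.6) against 3.80%. At least 3 such UMIs were present in 8 control carriers, which held 53 of the 107 UMIs of the 4 factors in control carriers, and in 1 KO carrier, which held 15 of 22. Among the other C1q barcodes, 30 in control held at least 3, with 496 of the 679 factor UMIs of that set, and 8 in KO, with 73 of 185. At this depth, most carriers held muscle transcripts without a detected UMI of a myogenic factor.

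Muscle transcripts were also given relative to the 4 rule genes and set beside barcodes with myogenic factors. The rule fixed the rule genes high in carriers and low in the other C1q barcodes, which by itself lowers any gene per rule UMI in carriers, so these values are a description and nothing is read from the difference of carriers from either other set. All C1q barcodes, which the muscle limit did not cut, held 13.5 (12.6 to 14.5) UMIs of Des and 11.9 (11.05 to 12.8) of Actc1 per 100 rule UMIs in control, and 13.03 (11.3 to 14.9) and 10.3 (8.81 to 12.0) in KO. Barcodes with myogenic factors had under 5 C1q UMIs per 10000 and at least 3 UMIs per 10000 of the 4 factors, 28 barcodes in control and 17 in KO. Per 100 UMIs of the 4 rule genes, control carriers held 5.92 (5.15 to 6.78) UMIs of Des, the other C1q barcodes 23.8 (21.8 to 25.9) and barcodes with myogenic factors 279 (230 to 341). In KO the same 3 values were 5.80, 15.95 (13.7 to 18.5) and 225. Ttn followed the same order, at 6.05, 20.4 and 191 in control and 5.03, 12.4 and 253 in KO. Des and Ttn are genes that myoblasts already make. Of the embryonic genes, Actc1 stood at 10.6 per 100 rule UMIs in control carriers, 13.7 in the other C1q barcodes and 10.0 in barcodes with myogenic factors, and Myl4 at 10.3, 13.5 and 18.6. Of the rule genes themselves, Acta1 was at 37.7 per 100 rule UMIs in control carriers, 37.5 in the other C1q barcodes and 32.9 (23.0 to 46.1) in barcodes with myogenic factors. In KO it was at 35.4, 33.8 and 17.5 (12.0 to 24.96), and Mylpf at 41.4, 43.7 and 72.5 (58.5 to 89.7). In the control dendritic-like barcodes, Acta1 was at 47.0 (29.6 to 73.0) per 100 rule UMIs, Mylpf at 39.4 (24.0 to 62.9), Myl1 at 21.2 and Des at 9.09 (3.22 to 20.9), from 66 rule UMIs. In the KO dendritic-like barcodes, from 22 rule UMIs, they were at 18.2 (4.55 to 53.5), 77.3 (38.5 to 152), 9.09 and 4.55 (0.110 to 28.1).

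**Figure D3:**
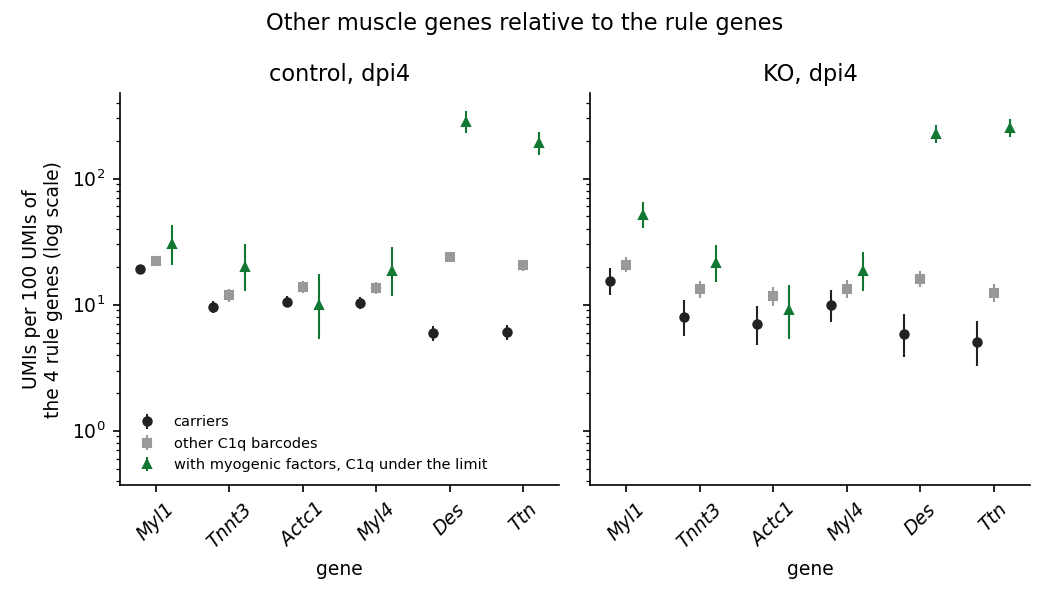
UMIs of muscle genes per 100 UMIs of the 4 rule genes, on a log axis, in carriers, the other C1q barcodes and barcodes with myogenic factors of each dpi4 library, with 95% counting intervals. Des stands at 5.92 in control carriers, where the rule fixed the denominator high, and at 279 in control barcodes with myogenic factors, against 13.5 over all control C1q barcodes.

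Other immune cells, which are not known to make the 4 rule genes, were measured the same way. Neutrophils and dendritic cells are phagocytes too, and whether they held muscle RNA by uptake was not tested. The classes were neutrophil-like, T-like, NK-like, B-like and dendritic-like barcodes under the C1q limit, each with at least 10 UMIs per 10000 of its marker list, 292 in control (median 8342 UMIs) and 291 in KO (median 8591). The 4 rule genes stood at 35.5 CPM (28.4 to 43.7) in the control classes together and 15.6 (11.1 to 21.2) in the KO classes. All C1q barcodes, which like these classes were not cut at the muscle limit, were at 96.8 (94.5 to 99.2) in control and 35.9 (34.2 to 37.6) in KO. The rule splits them into carriers at 744 and 529 and other C1q barcodes at 44.3 and 26.1, and fixes both of these values in part. Dendritic-like barcodes were at 39.4 (30.5 to 50.1) in control and 12.0 (7.50 to 18.1) in KO, from 66 and 22 UMIs. The control neutrophil-like barcodes were at 45.9 (25.7 to 75.7, 15 UMIs) and the KO NK-like barcodes at 27.0 (14.8 to 45.4, 14 UMIs). Of these 14 UMIs, 8 were of Ckm, which held 6.74 of 100 rule UMIs over all KO C1q barcodes. The remaining classes, B-like barcodes included, held 0 to 3 UMIs each, too few for an order. Barcodes with myogenic factors held 201 and 365, and barcodes with fibroblast markers 89.5 (67 barcodes) and 217 (38 barcodes). These sets overlapped, with 25 control and 17 KO barcodes in both, and without the shared barcodes those with fibroblast markers held 27.3 (18.8 to 38.3) and 87.8 (66.7 to 114). At dpi2 the C1q barcodes were at 5.95 (5.21 to 6.76) in control and 6.82 (5.89 to 7.85) in KO. The marker classes together stood above them there, in the reverse order of dpi4. They were at 16.6 (13.1 to 20.7) and 13.6 (11.1 to 16.5), from 77 and 104 UMIs.

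The deposited tables start at 500 UMIs a barcode and hold no empty droplets, so the free RNA of the suspension was not read directly. The muscle limit was reached by 12 of 292 control barcodes of these classes (4.11%, 2.14 to 7.07) and 5 of 291 KO barcodes (1.72%, 0.560 to 3.96). In control this lay below the carriers' share of 8.20%, and in KO the intervals overlapped, at 2.92% (2.33 to 3.60) for the C1q barcodes. Depth differed between these sets, with medians of 16151.5 and 15168 UMIs in the C1q barcodes of control and KO. When every barcode was thinned to 2000 UMIs, at least 1 muscle UMI was left in 13.4% (12.3 to 14.6) of the control C1q barcodes and 6.64% (4.05 to 10.2) of the control marker classes, against 45.5% and 17.5% before thinning. In KO the thinned values were 7.46% (6.50 to 8.50) and 1.76% (0.574 to 4.06), against 29.9% and 11.3% before. That step left out 111 and 83 C1q barcodes and 6 and 7 barcodes of the marker classes as too shallow. Thinned to 5000 UMIs, at least 2 muscle UMIs were left in 9.71% (8.73 to 10.8) of the control C1q barcodes and 3.74% (1.52 to 7.56) of the control marker classes. In KO they were left in 2.99% (2.37 to 3.72) and 1.41% (0.291 to 4.06), a difference not detectable at this depth.

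**Figure D4:**
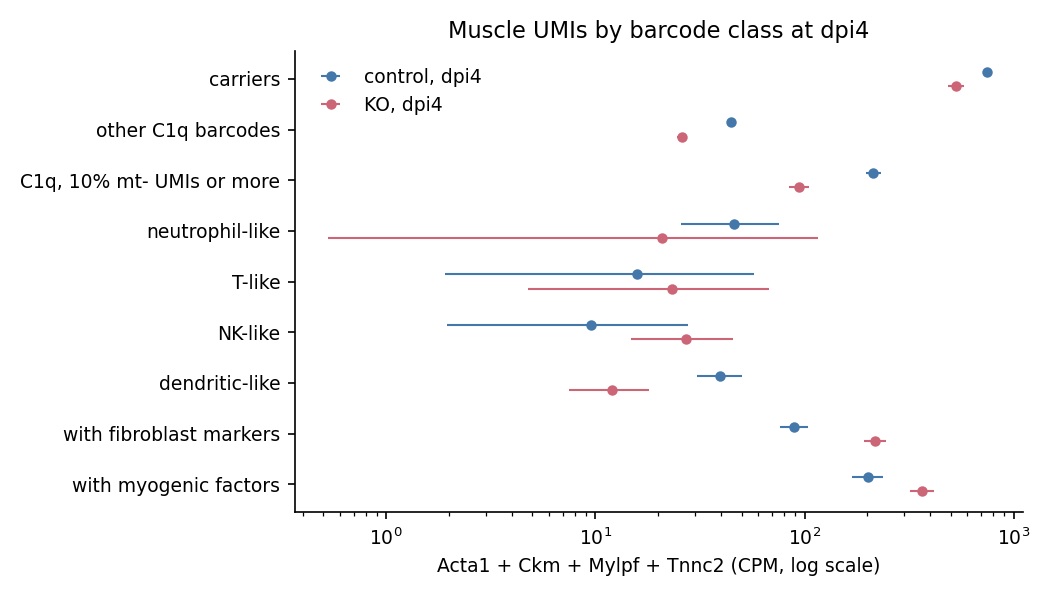
CPM of the 4 rule genes, on a log axis with exact 95% Poisson intervals, in the classes of barcodes of the control and KO dpi4 libraries. The carriers stand at 744 and 529, which the rule fixes, and the other C1q barcodes, which the rule caps under 3 per 10000, at 44.3 and 26.1. Dendritic-like barcodes, which are not cut, stand at 39.4 and 12.0.

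Values that bear on a second cell in the droplet were as follows. Carriers were not deeper than the other C1q barcodes in the median. The Scrublet doublet score had a median of 0.0537 in control carriers against 0.0561 and of 0.0492 in KO carriers against 0.0567. The barcodes with the highest scores, 150 in control and 100 in KO, included 5 of 300 control carriers (1.67%, 0.543 to 3.85) against 4.11% of the others, and 0 of 83 KO carriers, which allows up to 4.35% (exact 95% limit), against 3.40%. The score is built from pairs of barcodes of the same library, in which barcodes with myogenic factors numbered 28 and 17. Of markers of other cells, 19 control carriers (6.33%) held at least 10 fibroblast UMIs per 10000 against 2.26% of the others, although the summed fibroblast level was 0.690-fold in carriers. In KO, 2 carriers (2.41%) held as many against 0.398% of the others, and the sum was 0.128-fold. The fibroblast sum within the depth band was 0.659-fold (0.553 to 0.781) in control and 0.833-fold (0.413 to 1.503) in KO. The neutrophil markers together were 1.49-fold (1.40 to 1.58) and 1.87-fold (1.60 to 2.18) in carriers, but S100a9, a neutrophil alarmin, was found in 14 control and 2 KO carriers, and 1 carrier in each library held 218 of 454 and 47 of 57 of its UMIs. Neutrophil, T, NK and B cell markers together were at 1.31-fold (1.24 to 1.39) and 1.43-fold (1.23 to 1.64), and within the depth band at 0.789-fold and 0.730-fold. Thinned to 5000 UMIs they were at 2.49-fold and 0.608-fold, and the cause of these moves was not tested. The neutrophil ratio within the depth band was 0.853 (0.722 to 1.0) in control and 0.940 (0.627 to 1.36) in KO. T cell markers had 2 and 3 UMIs in carriers, dendritic markers were at 0.507-fold and 0.110-fold, NK markers at 0.194-fold and 0.551-fold, B cell markers at 1.20-fold and 0.448-fold, endothelial markers at 0.576-fold and 0.263-fold, and mural cell markers at 0.952-fold and 1.04-fold. In the same band, dendritic markers were at 0.259-fold (0.144 to 0.430) in control and 0.104-fold in KO, NK markers at 0.257-fold and 0.432-fold, and B cell markers at 1.07-fold in control and 0.240-fold (0.0290 to 0.875) in KO. Mural cell markers within the depth band were at 2.58-fold (2.01 to 3.29) in control and 1.14-fold (0.681 to 1.79) in KO, and endothelial markers at 1.32-fold (0.967 to 1.78) and 0.455-fold (0.123 to 1.18). Cd3e, Cd3d and Cd3g, the defining T cell markers, had 0 UMIs in carriers of both libraries, and red blood cell markers had 2 and 0. Their part in the carriers' muscle level was not tested.

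Outside the muscle lists, few genes set the carriers apart in both libraries. Of 11298 genes with enough UMIs in both, 32 (0.283%) were higher and 84 (0.743%) lower by the size rule in both, beside the 4 rule genes, and 20 of the 32 were genes of the muscle lists. Genes with 0 UMIs in carriers entered the 84 as a ratio of 0. At 3 counts some of them, such as Marco in control (at least 1.38-fold), are not shown to be 2-fold lower. The 10 higher genes that led among those on no muscle list, ranked by the smaller of both ratios, are given here. Mustn1, a small protein of regenerating muscle, was at 14.9 CPM against 1.74 in control (8.60-fold, 6.33 to 11.6) and at 11.2 against 0.856 in KO (13.1-fold, 6.1 to 26.0). Cryab, the heat shock protein that guards desmin, was 7.22-fold and 3.93-fold higher. Igf2, a growth factor that myoblasts secrete, was 4.42-fold and 3.89-fold higher, with 30 of 121 UMIs of control carriers in 1 carrier, and H19, the imprinted noncoding RNA next to it, 2.13-fold and 4.96-fold, in 60.3% of control and 42.2% of KO carriers. Fndc5, the precursor of the muscle hormone irisin, was 2.82-fold and 4.65-fold higher. Dclk1, a kinase that binds microtubules, was 2.72-fold and 4.63-fold, Bex1, a small adaptor protein, 2.36-fold and 3.92-fold, and Nrg1, a ligand of the ErbB receptors, 2.29-fold and 3.39-fold higher. Nrg1 was found in 2 KO carriers, and Fndc5 in 4. Within the depth band, H19 was 3.27-fold and 5.55-fold, Igf2 9.63-fold and 11.5-fold and Bex1 6.11-fold and 4.05-fold, while Fndc5 in control, at 1.81-fold (0.547 to 4.70), and Nrg1 in KO, at 2.91-fold (0.916 to 7.15), had intervals that held 1.

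The remaining members of those 10, Dnase1l3 and Tlr12, are immune genes. Dnase1l3 encodes a secreted enzyme that cuts DNA in chromatin released by dying cells (chr14:7964533-7994573, minus strand). It was at 32.1 CPM in control carriers against 10.9 in the others, a ratio of 2.93 (2.46 to 3.48), and at 85.9 against 25.4 in KO, a ratio of 3.39 (2.68 to 4.23). It was found in 46 control carriers (15.3%, against 9.08% of the others) and 19 KO carriers (22.9%, against 13.9%). In each library 1 carrier held many of its UMIs, 20 of 163 in control and 17 of 84 in KO. Across rising muscle levels in control, from no muscle UMI to 10 per 10000 and over, Dnase1l3 stood at 8.43, 12.2, 16.5, 21.0, 35.1 and 57.4 CPM, higher in each class than in the one before. In KO it stood at 19.4, 27.8, 64.2, 101, 57.5 and 66.9, and the last class rested on 11 barcodes and 4 UMIs. Within the depth band the ratio of carriers over others was 3.66 (2.86 to 4.66) in control and 3.29 (2.39 to 4.43) in KO. Tlr12, a toll-like receptor for microbial protein, was 2.99-fold (2.23 to 3.95) and 5.31-fold (3.49 to 7.80) higher, and within the depth band 1.63-fold (0.917 to 2.73) in control and 4.94-fold (2.61 to 8.65) in KO.

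Genes of dividing cells were lower in carriers, and 7 of the 84 genes lower in both libraries were on the cell cycle list. Of the 8 genes of that list, 7 were lower by the size rule in control and 8 in KO, and their sum was 55.8 CPM in control carriers against 196 in the others (0.285-fold, 0.252 to 0.320) and 22.5 against 171 in KO (0.132-fold, 0.0825 to 0.200). Top2a, which untangles DNA before division, was at 5.90 against 47.2 in control (0.125-fold, 0.0842 to 0.179) and at 4.09 against 42.3 in KO (0.0967-fold, 0.0263 to 0.248). Cenpe, a motor of the kinetochore, was at 0.585-fold in control and did not pass. Any UMI of the 8 genes was found in 35.3% of control carriers against 36.3% of the others, and in 22.9% against 31.5% in KO. At least 10 such UMIs per 10000 were held by 3 control carriers (1.0%) against 3.16% of the others, and by 0 KO carriers against 2.97%. Depth moved with the difference in the summed level. Within the depth band, the sum of the 8 genes was 0.608-fold (0.476 to 0.767) in control carriers and 0.415-fold (0.214 to 0.727) in KO carriers, and Top2a was 0.660-fold (0.335 to 1.18) and 0.195-fold (0.00492 to 1.10). Nusap1, Hist1h1b, Kif4, Kif2c, Melk and Pbk, 6 further genes of mitosis and DNA packing, were among the 10 lowest by the ranking, which took 0 UMIs as a ratio of 0. In control, Nusap1 was 0.0855-fold overall and 0.570-fold (0.0666 to 2.21) within the depth band. Nusap1, Kif4, Kif2c, Melk and Pbk had 0 UMIs in KO carriers. At 3 counts, Nusap1 was at least 3.99-fold lower there, with an exact upper limit of 0.309. Pbk was at least 1.67-fold, Kif4 1.32-fold, Melk 1.27-fold and Kif2c 1.24-fold lower, which is short of 2-fold. The exact upper limit of Kif2c was 0.9998. Within the depth band, the intervals of all 6 genes held 1 in both libraries, as for Hist1h1b at 0.722-fold (0.144 to 2.25) in control and Nusap1 with 0 against 44 UMIs and an upper limit of 3.36 in KO.

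Retnla, a secreted product of alternatively activated macrophages, was at 1.97 CPM in control carriers against 54.4 (0.0361-fold, 0.0173 to 0.0665) and at 1.02 against 13.2 in KO (0.0774-fold, 0.00196 to 0.433), which rests on 1 UMI in KO carriers. It was detected in 3.33% of control carriers against 4.41% of the others and in 1.20% against 1.12% in KO, so the sets differed less in how many barcodes held it than in its level. Within the depth band it was 0.0331-fold (0.00900 to 0.0849) in control and 0.126-fold (0.00319 to 0.710) in KO. Marco, a scavenger receptor, had 0 UMIs in carriers of both libraries. At 3 counts it was at least 1.38-fold lower in control and 3.08-fold lower in KO, with exact upper limits of 0.925 and 0.401. With 0 UMIs against 10 in control and 138 in KO, its intervals within the depth band held 1, with upper limits of 4.83 and 1.04. When barcodes were thinned to 5000 UMIs, Marco turned to 1.07-fold (0.217 to 3.24) in KO. Ly6c1, a surface protein of endothelium and monocytes, had 3 UMIs in control carriers (0.105-fold) and 0 in KO carriers. At 3 counts it was at least 2.98-fold lower in KO, with an exact upper limit of 0.415. Its intervals within the depth band also held 1, at 0.570-fold (0.0666 to 2.21) in control and with 0 against 36 UMIs and an upper limit of 4.15 in KO. Thinned to 5000 UMIs it turned to 2.41-fold (0.633 to 6.57) in KO.

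Genes of engulfment and of the lysosome stood close to the other C1q barcodes. The 27 lysosome genes summed to a ratio of 1.0 (0.999 to 1.01) in control and 0.996 (0.986 to 1.01) in KO, with median log2 ratios of 0.01 and 0.04 beside -0.06 and -0.09 over all genes. In control, 0 of 27 passed the size rule in either direction. In KO, 0 were higher and 1 was lower, Atp6v0d2, a subunit of the lysosomal proton pump with 0 UMIs in KO carriers. Ctsb and Ctsd, the most abundant cathepsins on the list, were at 0.952-fold and 0.991-fold in control and 0.979-fold and 0.959-fold in KO. The list of efferocytosis genes, the uptake of dying cells, holds receptors, bridging proteins, genes of engulfment and Dnase1l3. Of it, 1 of 13 was higher and 0 lower in control and 1 of 12 was higher and 1 lower in KO, and the higher gene was the secreted enzyme Dnase1l3 in both libraries. No receptor or bridging protein on the list was higher by the size rule. Axl, a receptor for the lipid-bridging protein Gas6, was at 202 CPM in control carriers against 136 (1.48-fold, 1.39 to 1.58) and at 380 against 192 in KO (1.98-fold, 1.78 to 2.20), under the 2-fold limit. Itgb5, an integrin chain that binds the bridge Mfge8, was at 1.28-fold and 1.35-fold, and Mertk, the related receptor, at 1.02-fold and 1.17-fold. Mfge8 itself was at 0.737-fold and 0.357-fold, the latter past the size rule, with 30 of 56 UMIs in 1 KO carrier.

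Scavenger receptors as a sum were at 0.724-fold (0.701 to 0.747) in control carriers and 0.783-fold (0.738 to 0.830) in KO carriers. Cd36, which takes up oxidised lipid, was at 171 CPM against 322 in control (0.532-fold) and at 187 against 539 in KO (0.347-fold, past the size rule). Mrc1, the mannose receptor, was at 0.654-fold and 0.768-fold, and Cd163, which takes up hemoglobin, at 0.528-fold and 0.327-fold. Cd5l was 2.38-fold higher in KO carriers, where 131 of its 150 UMIs came from 1 carrier, and 0.672-fold in control. Of the lipid and growth factor genes, Lpl, the lipoprotein lipase, was lower by the size rule in both libraries, at 0.491-fold and 0.415-fold. Spp1, the secreted matrix protein osteopontin, was at 3714 against 6240 in control (0.595-fold) and at 6274 against 9227 in KO (0.680-fold). Gdf15, a growth factor induced by stress, was at 1.5-fold and 1.74-fold and Gpnmb, a lysosomal glycoprotein, at 1.11-fold and 0.996-fold. Within the depth band, Spp1 was at 0.583-fold and 0.749-fold, and Gpnmb turned to 0.895-fold (0.856 to 0.935) in control and was at 0.992-fold (0.905 to 1.09) in KO.

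Antigen presentation and inflammatory genes were slightly above the other C1q barcodes. MHC class II genes summed to 1.22-fold (1.21 to 1.24) in control and 1.20-fold (1.17 to 1.24) in KO, with 0 of 7 past the size rule in either. Interferon response genes were at 1.15-fold and 1.22-fold, with 0 of 12 past it, and within the depth band at 0.860-fold and 1.42-fold, below 1 in control. Inflammatory genes were at 1.22-fold and 1.35-fold, with 0 of 12 higher and 1 lower by the size rule in control and 1 higher and 0 lower in KO. The lower gene was Il6, a cytokine, at 0.425-fold (0.169 to 0.892) in control, with 7 UMIs in carriers. The chemokine Ccl3 was at 734 CPM against 462 in control carriers (1.59-fold) and at 883 against 342 in KO carriers (2.58-fold, past the size rule), Ccl4 at 1.5-fold and 1.95-fold, and the cytokine Il1b at 1.57-fold and 1.08-fold. Immediate early and heat shock genes, which rise when tissue is digested, were at 1.10-fold in both. Heme and iron genes summed to 0.989-fold and 0.884-fold, and Hmox1 alone passed the size rule in control, at 215 CPM against 486 (0.441-fold, 0.415 to 0.469), while it was at 0.853-fold (0.832 to 0.875) in KO. In KO, Tfrc, the transferrin receptor, was the member lower by the size rule, at 0.376-fold (0.248 to 0.548), and it was at 0.588-fold in control. Genes of resident-like macrophages summed to 0.996-fold (0.983 to 1.01) in control and 1.35-fold (1.32 to 1.39) in KO, with 1 of 8 past the size rule, lower, in control and 0 of 8 in KO. The genes did not move together: 1 of 8 had a ratio above 1 in control, with a median log2 ratio of -0.59, and 3 of 8 in KO, with a median of -0.09 where the gene at 0 is set to 3 counts. On that list, Lyve1, a marker of resident macrophages, had 1 UMI in control carriers (0.0508-fold) and 0 in KO carriers, Folr2 was at 0.643-fold and 0.836-fold, and Sepp1, a selenium carrier, at 1.05-fold and 1.45-fold. Monocyte markers were at 0.818-fold and 0.743-fold, and within the depth band at 0.674-fold (0.606 to 0.747) and 0.449-fold (0.341 to 0.582).

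**Figure D5:**
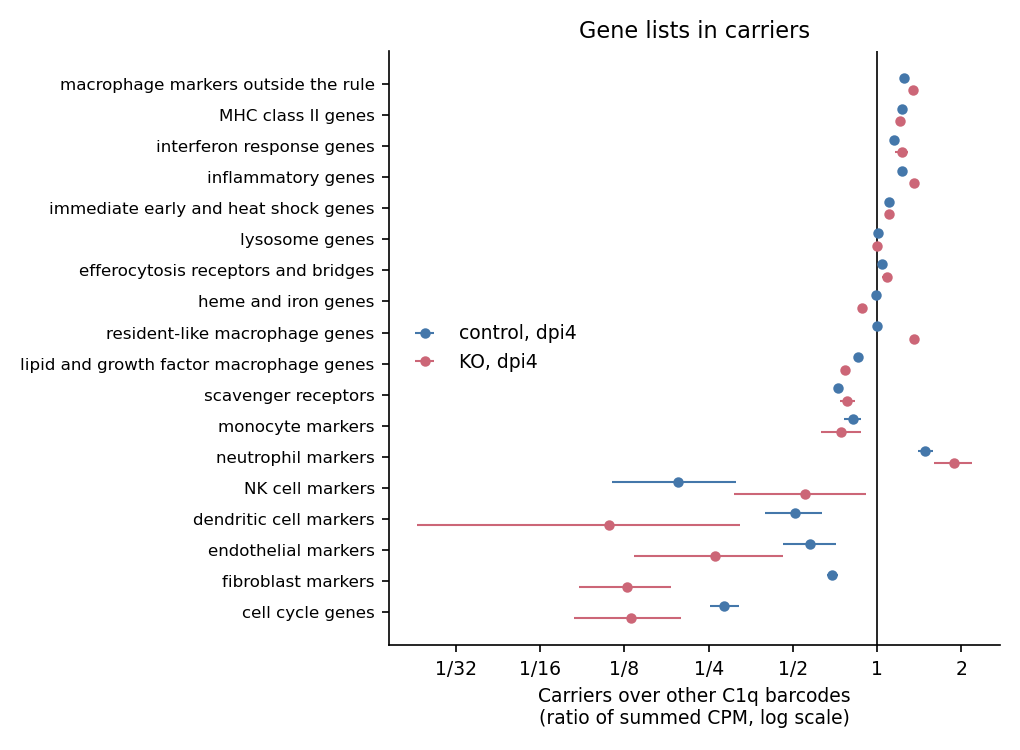
Ratio of summed CPM in carriers over the other C1q barcodes for 18 gene lists in the 2 dpi4 libraries, on a log axis with 95% counting intervals. The lysosome list lies at 1.0 and 0.996, the neutrophil list at 1.49 and 1.87, and the cell cycle list at 0.285 and 0.132.

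The share of carriers did not follow the C1q level in order. From 5 to 20 C1q UMIs per 10000 it was 9.46% in control and 3.49% in KO, from 20 to 50 it was 5.71% and 1.89%, from 50 to 100 it was 7.66% and 2.27%, and at 100 or more it was 9.44% and 4.18%. Carriers close to the C1q limit, under 20 per 10000, numbered 28 (9.33%) in control and 8 (9.64%) in KO. Barcodes at the C1q limit with 10% or more mitochondrial UMIs, which the rule leaves out, reached the muscle limit more often, in 96 of 422 (22.7%, 18.8 to 27.1) in control and 66 of 580 (11.4%, 8.91 to 14.2) in KO, at medians of 3775.5 and 4696 UMIs.

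Muscle UMIs were lower in the KO library over all C1q barcodes, a set the muscle limit did not cut, and in the marker classes as a whole. KO over control, the CPM of the 4 rule genes was at 0.371-fold (0.352 to 0.391) over all C1q barcodes, 0.439-fold (0.294 to 0.645) in the marker classes under the C1q limit and 0.303-fold (0.178 to 0.498) in dendritic-like barcodes. NK-like and T-like barcodes held 14 and 3 such UMIs in KO against 3 and 2 in control, too few to compare. Over all barcodes under the C1q limit the ratio was 0.839 (0.729 to 0.965). It was above 1 in barcodes with myogenic factors, at 1.82 (1.46 to 2.27), and in those with fibroblast markers, at 2.43 (1.99 to 2.97), which are overlapping sets. The share of these barcodes with any muscle UMI went the other way. It was 52.9% in KO against 78.6% in control with myogenic factors, and 39.5% against 52.2% with fibroblast markers. The highest KO barcode of both sets held 34.4 muscle UMIs per 10000, against 8.31 in control. Fewer macrophages with muscle RNA, less muscle RNA in the suspension and a difference between the 2 preparations cannot be told apart, since each genotype was 1 library. Among the carriers, Dnase1l3 was 2.68-fold (2.03 to 3.51) and Tlr12 2.39-fold (1.49 to 3.77) higher in KO than in control, and Igf2 was 0.387-fold (0.173 to 0.759). In the other C1q barcodes the same ratios were 2.32 (2.11 to 2.55), 1.35 (1.13 to 1.60) and 0.439 (0.352 to 0.543), and whether the sets differed was not tested. Slc40a1, the iron exporter, was 12.1-fold and Spic, a factor of heme-handling macrophages, 28.2-fold higher in KO carriers, against 10.6-fold and 15.8-fold in the other C1q barcodes.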

How the data were processed

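The deposited files hold raw UMI counts per gene and barcode for 4 droplet libraries (10x Genomics, 3′ end), 1 library per group, made by the authors with Cell Ranger 6.1.2 on mm10, per the submitters' processing notes. Each table holds 27998 genes and starts at 500 UMIs a barcode. The carriers and all gene lists were chosen with earlier results of these data known, and the rule for carriers used the measured values.

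UMIs were summed over the barcodes of a set within a library and divided by all UMIs of that set and given as CPM (per 1000000). A ratio is that level in carriers over the other C1q barcodes. Where 2 values are given without labels, the first is control and the second KO. Intervals cover 95%: exact Poisson for levels, exact conditional binomial for ratios, Clopper-Pearson for shares and Newcombe for the difference of shares. PCR copies were already merged by UMI, and intervals cover counting error only. No test was run, since each group was 1 library. A gene with 0 UMIs in carriers entered the size rule and the ranking as a ratio of 0, and was set to 3 counts for a bound. Genes named by rule were the rule genes, list genes with at least 50 UMIs, and the 10 highest and 10 lowest ratios past the size rule in both libraries on no muscle list, ranked by the smaller log2 ratio. Genes that check the labels or the counting (such as Bach1, Lyz2, Ptprc and Actb) and genes with opposite directions in the libraries were named beside these. Of 286 list symbols, 285 were matched. A further macrophage marker and a further gene with opposite directions in the libraries are not reported here. Gene positions are from GENCODE on GRCm38.

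The study removed doublets and low-quality cells with its own tools, which were not rerun. Here the highest Scrublet scores (0.8% per 1000 barcodes) were removed only as an alternative. The size rule and intervals were run on simulated Poisson counts, which is the model that the intervals assume. This does not check them on the real barcodes, in which UMIs cluster. Thinned to 5000 UMIs, the variance of muscle UMIs per barcode over their mean was 8.79 in control C1q barcodes and 2.03 in KO. The intervals leave this clustering out. The scripts used Python 3.11.15, NumPy 2.4.6, SciPy 1.17.1, pandas 2.3.3, Scanpy 1.11.5 and Matplotlib 3.10.9. The alternatives were other limits for genes, mitochondrial UMIs, C1q and muscle, a minimum of 3 muscle UMIs or 2 rule genes, the muscle sum without Acta1, thinning, removal by Scrublet, equal weights for barcodes, and other size limits.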

Additional observations from a re-analysis of the deposited data

Results flagged for a closer look

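Of 11298 genes with enough UMIs in both libraries, 0 were higher in control carriers and lower in KO carriers by the size rule, and 5 were lower in control and higher in KO, of which 4 are described here. Slpi, a secreted protease inhibitor, stood at 0.343-fold in control and 3.96-fold in KO, where 17 of its 21 UMIs in carriers came from 1 carrier. Htra1, a secreted protease, stood at 0.421-fold and 3.38-fold, with 6 UMIs in KO carriers, 5 of them in 1 carrier. Sdc1, a cell surface proteoglycan, stood at 0.382-fold and 2.12-fold, with 12 UMIs in 2 KO carriers, 7 of them in 1 carrier. Gal, which encodes the neuropeptide galanin, stood at 0.406-fold and 4.05-fold, with 18 UMIs in 7 KO carriers, 10 of them in 1 carrier. These directions are opposite between the libraries, and the difference between the libraries was not tested.

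The muscle limit was also reached in barcodes that the rule leaves out. Of C1q barcodes with 10% or more mitochondrial UMIs, 22.7% in control and 11.4% in KO reached it, against 4.11% and 1.72% of the barcodes of the marker classes under the C1q limit. Their muscle level was 214 CPM (196 to 232) in control and 94.5 (84.4 to 105) in KO.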

How the results depend on the processing

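No paired analysis was possible because each group was 1 library. The share of carriers stayed lower in KO than in control, and the 78 muscle genes outside the rule stayed higher in carriers, under every alternative run. Values are control then KO unless 1 library is named. The alternatives on depth (10000 to 20000 UMIs), on the 10 carriers with the most muscle UMIs and on barcodes with markers of other cells were chosen after seeing the data. Counts limit the KO values: the 83 KO carriers hold 517 muscle UMIs.

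The share of carriers was 12.8% and 5.31% at a limit of 2 muscle UMIs per 10000, 4.48% and 1.23% at 5, 1.39% and 0.387% at 10, 7.30% and 2.14% with at least 3 muscle UMIs, 4.78% and 1.65% without Acta1, and 9.71% and 4.35% with no mitochondrial limit. It was 2.28% in KO with at least 2 rule genes, 2.27% in KO under 5% mitochondrial UMIs, and 9.56% in control thinned to 5000 UMIs. The difference was -7.49 points at a limit of 2, -3.25 at 5, -1.01 at 10, -3.13 without Acta1 and -6.41 thinned. The depth ratio of KO carriers was 0.179 at a limit of 10, 0.867 with at least 3 muscle UMIs, 0.446 with no mitochondrial limit (control 0.823) and 0.891 thinned.

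Genes past the size rule, 520 and 413, numbered 870 and 782 at 1.5-fold, 226 and 231 thinned, 250 in control with at least 200 UMIs and 238 in control within the depth band. The ratio of muscle genes outside the rule was 2.75 and 2.33 at a limit of 2, 4.01 and 3.79 at 5, 5.84 and 5.22 at 10, 3.78 and 2.91 without Acta1, 3.74 and 2.69 with barcodes weighted equally, 3.43 and 3.13 under 5% mitochondrial UMIs, 3.13 and 2.23 thinned, 3.72 and 2.91 within the depth band, and 2.76 and 2.05 without the 10 carriers. In control it was 3.14 without the highest Scrublet scores and 3.38 without markers of other cells. The lysosome median of control on the log2 scale was -0.072 at 5 and -0.19 at 10.

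The markers of other immune cells, 1.31 and 1.43, changed direction most often, and the cause was not tested. They were 1.04 and 1.98 at a limit of 2, 0.473 and 1.10 at 5, 0.329 and 0.350 at 10, 1.91 and 1.02 without Acta1, 1.21 and 0.808 with barcodes weighted equally, 1.45 and 2.16 at 20 C1q UMIs per 10000, 0.930 and 0.634 under 5% mitochondrial UMIs, 2.49 and 0.608 thinned, and 0.789 and 0.730 within the depth band. In control they were 0.872 with at least 3 muscle UMIs, 0.426 with at least 2 rule genes and 1.40 at 1000 genes, and in KO 1.77 without the 10 carriers. S100a9 turned lower in control at 5 (0.258), at 10 (0.0262), with at least 2 rule genes (0.0395) and within the depth band (0.167). Without markers of other cells it was at 0.587 (0.277 to 1.10) in control, which held 1. In KO it was at 0.983 (0.469 to 1.82) under 5% mitochondrial UMIs. It had 0 UMIs left in KO at 10, thinned, within the depth band and without markers of other cells, with upper limits of 4.66, 1.51, 26.7 and 11.4. All of these KO intervals held 1, so they give no direction. In KO carriers, Nrg1 was at 0 at limits of 5 and 10 and without Acta1, Dclk1 and Myog at 0 at 10, and Cd5l at 0.253 at 10, 0.424 within the depth band and 0.326 without the 10 carriers. The intervals of Nrg1, Dclk1 and Myog there, and of Cd5l at 10, held 1. Marco (1.07) and Ly6c1 (2.41) turned higher in KO when thinned, and Ly6c1 (1.02) in control without markers of other cells, all with intervals that held 1.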
